A study of Rattus norvegicus with 6 samples.

Results

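The genes described here are 9 secreted growth factors through which mesenchymal stem cells are held to act on vessels and nerves, Vegfa, Vegfb, Vegfc, Pgf, Angpt1, Hgf, Fgf2, Fgf7 and Bdnf. They were chosen by gene name, and each matched 1 of the 33508 rows of the deposited count table. RNA-seq was performed on 3 libraries of BMSCs-OE-NC and 3 of BMSCs-OE-FNDC5. Both groups were rat bone marrow mesenchymal stem cells (BMSCs) from 2-month-old male Sprague-Dawley rats, passaged 3 times and exposed to lentivirus for 72 h (multiplicity of infection 10). BMSCs-OE-NC received a blank vector control and BMSCs-OE-FNDC5 a vector overexpressing rat FNDC5, the membrane-bound precursor of irisin. All 6 libraries were from cells kept for 24 h at 1% O2, 94% N2 and 5% CO2 in medium without glucose or serum (hypoxia/serum deprivation, H/SD), so the comparison is between vectors under injury and contains no uninjured cells. The labels call the 3 libraries of a group biological replicates, but nothing says that they came from separate rats or transductions, and p-values then describe the spread between these libraries only.

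VEGF-A is the main growth signal for endothelium and binds the receptor tyrosine kinases encoded by Flt1 and Kdr. VEGF-B and placental growth factor (Pgf) bind the Flt1 product but not that of Kdr, and VEGF-C and VEGF-D act mainly on lymphatic endothelium through the Flt4 product. Angiopoietin 1 steadies vessels through the Tek receptor, hepatocyte growth factor acts through Met, FGF2 and FGF7 through different FGF receptors, and brain-derived neurotrophic factor through the Ntrk2 receptor on neurons. Marrow stromal cells release many of these proteins, and low oxygen raises Vegfa through the hypoxia-inducible factors in many cell types.

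Of the 9 transcripts, 4 were lower in BMSCs-OE-FNDC5 by more than 2-fold (Angpt1, Vegfc, Hgf and Fgf7), Bdnf was moderately higher, and Vegfa, Vegfb, Pgf and Fgf2 differed by a log2 value of 0.50 or less in either direction. Levels are CPM, a library's counts for a gene relative to its TMM-scaled total (trimmed mean of M values). A positive log2 fold change means a higher level with FNDC5, and its standard error (SE) and adjusted p come from edgeR's quasi-likelihood test with Benjamini-Hochberg adjustment over all 12104 genes tested. At an adjusted p under 0.05, 4 members rose and 5 fell, so that all 9 passed, where 75.7% of all genes tested passed (36.9% higher, 38.8% lower). With library size as the sole scaling 1 member rose and 6 fell. Of all 12104 genes 2659 then rose and 6709 fell, and their median shifted by -0.37 (log2). With an absolute log2 fold change over 1 as well, 0 members rose and 4 fell, where 27.4% of all genes passed (9.84% higher, 17.5% lower). The members' median log2 fold change was -0.09 and that of all genes -0.04. In all 9 members the 3 libraries of one group lay above the 3 of the other, as in 78.3% of all genes (37.9% higher, 40.4% lower). A difference in transcript level cannot tell fewer cells expressing a gene apart from less RNA per cell.

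Total counts were 16640635 to 17965722 per library. Fndc5 was counted 17 to 25 times in control libraries and 64195 to 65589 times with the FNDC5 vector, which matches the labels. Stromal markers were present (10 of 11 tested, summed level 7781 to 7876 CPM in control libraries and 7224 to 7317 CPM with FNDC5), although Lepr had at most 5 counts. Within this sum 4 markers rose, among them Thy1 (log2 fold change 1.29) and Col3a1 (0.77), and 6 fell, among them Pdgfra (-1.86), Pdgfrb (-1.62), Nt5e (-1.31) and Itgb1 (-1.02). Defining genes of blood cells (Ptprc, Aif1, Adgre1), endothelium (Cdh5, Emcn, Cldn5, Kdr) and retina or neurons (Crx, Rbfox3, Snap25) were at 0 in all libraries. The summed level of 9 blood cell markers was 103 to 109 CPM against 199 to 207 CPM, mostly Cd14 (98.5 ± 2.54 against 197 ± 4.85 CPM, SD, n = 3 each), whereas Cd74, of the same list, fell from 98 to 105 counts to 5 to 11 counts (log2 fold change -3.22, edgeR adjusted p = 5.8e-07). The summed level of 9 endothelial markers was 51.8 to 55.3 against 90.6 to 94.0 CPM, mostly Egfl7 (52.7 ± 2.02 against 92.5 ± 2.02 CPM, SD, n = 3 each), and that of 11 neuronal and retinal markers was 16.8 to 21.3 against 42.7 to 45.6 CPM, mostly Stmn2 (17.4 ± 1.94 against 42.4 ± 1.03 CPM, SD, n = 3 each). The 4 platelet markers summed to at most 1.84 CPM and the 5 glial markers to at most 1.02 CPM in any library. Fold changes of all genes also fell with gene length, from a median log2 value of 0.65 in the shortest eighth (49 to 956 bases) to -0.84 in the longest (4723 to 29464 bases). The part of these markers and of this trend in any member's change was not tested. Values with each library's trend removed are given for the members and for some other genes, but not for shares or ratios. Genes given without such a value can also move, as Pdgfrb did from -1.62 to -0.90.

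**Figure D1:**
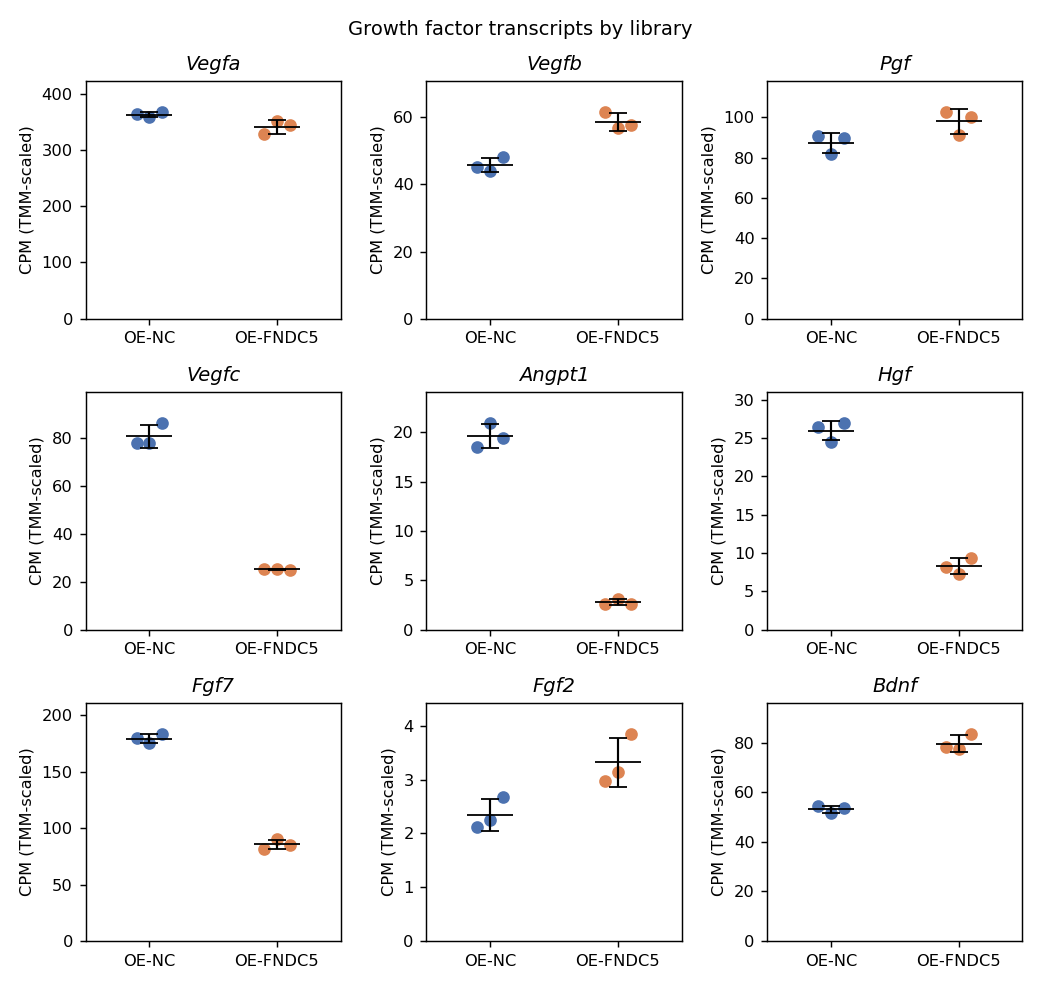
TMM-scaled CPM of the 9 growth factor transcripts in each library (points), with group mean and SD (black lines, n = 3 per group); each panel has its own linear axis from 0. Vegfc, Angpt1, Hgf and Fgf7 are far lower in BMSCs-OE-FNDC5, and Bdnf goes from 53.3 to 79.8 CPM.

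Angpt1 had the largest difference of the 9. Its counts were 377, 420 and 385 in BMSCs-OE-NC and 40, 46 and 39 in BMSCs-OE-FNDC5, that is 18.5, 20.9 and 19.4 CPM against 2.65, 3.14 and 2.58 CPM. Every BMSCs-OE-FNDC5 library was far under every control library. Means of 19.6 ± 1.22 and 2.79 ± 0.303 CPM (SD, n = 3 each) gave a 7.03-fold fall (log2 fold change -2.81, SE 0.13, edgeR adjusted p = 4.5e-09). Among all genes tested, 0.694% had a lower log2 fold change. With the trend with gene length removed the value was -2.91, and over 18 alternative analyses it ranged from -3.18 to -2.18 and always passed. Of its relatives, Angpt2, which antagonises it, had 0 counts in every library, and Angpt4 had 43 to 54 counts against 47 to 48 and did not pass (log2 fold change 0.36, edgeR adjusted p = 0.10). Its receptor genes had few or no counts, Tek at most 4 and Tie1 0.

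Among the VEGF family, the changes differed by member. Vegfc was at 77.9, 78.0 and 86.2 CPM in BMSCs-OE-NC and at 25.2, 25.2 and 25.0 CPM in BMSCs-OE-FNDC5. The groups lay far apart, and the 3 libraries with FNDC5 were almost equal. Vegfc thus fell 3.21-fold, with means of 80.7 ± 4.76 and 25.2 ± 0.103 CPM (SD, n = 3 each) (log2 fold change -1.68, SE 0.05, edgeR adjusted p = 2.5e-10). Removing the length trend left it at -1.68. Vegfd, the closest relative of Vegfc and likewise a lymphatic growth factor, also fell, from 279 to 307 counts per library in BMSCs-OE-NC to 4 to 19 in BMSCs-OE-FNDC5 (14.7 ± 0.701 against 0.939 ± 0.584 CPM, SD, n = 3). Its log2 fold change of -3.96 (SE 0.32, edgeR adjusted p = 5.2e-07) was -3.73 with the length trend removed.

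Vegfa, the second most abundant of the 9 by FPKM, moved little with TMM scaling. It stood at 363, 358 and 367 CPM in BMSCs-OE-NC and at 328, 352 and 345 CPM in BMSCs-OE-FNDC5. The lowest control library lay just above the highest FNDC5 library. The means were 363 ± 4.71 and 341 ± 12.4 CPM (SD, n = 3 each), a log2 fold change of -0.09 (SE 0.03, edgeR adjusted p = 0.026). This call rests on the analysis chosen, since it did not pass with DESeq2 (adjusted p = 0.11), with RLE scaling (edgeR adjusted p = 0.12) or without BMSCs-OE-FNDC5 replicate 1 (edgeR adjusted p = 0.13) or BMSCs-OE-NC replicate 3 (edgeR adjusted p = 0.052), and with the length trend removed it was 0.28 in the opposite direction (edgeR adjusted p = 6.6e-06). The fall was larger with upper-quartile scaling (-0.19, edgeR adjusted p = 1.5e-04) and with library size only (-0.46, edgeR adjusted p = 1.2e-07).

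Vegfb, whose product supports lipid handling and survival of heart and nerve cells more than vessel growth, was at 45.1, 44.1 and 48.1 CPM in BMSCs-OE-NC and 61.6, 56.7 and 57.6 CPM in BMSCs-OE-FNDC5. All libraries with FNDC5 were higher, with a log2 fold change of 0.36 (SE 0.05, edgeR adjusted p = 7.6e-05). The value was 0.22 with the length trend removed and -0.01 with library size only. Under that scaling it did not pass. Pgf was at 91.0, 81.6 and 89.6 CPM in BMSCs-OE-NC and 103, 91.1 and 100.2 CPM in BMSCs-OE-FNDC5. The highest control library and the lowest FNDC5 library were nearly equal. Its log2 fold change of 0.17 (SE 0.06, edgeR adjusted p = 0.018) did not pass without BMSCs-OE-NC replicate 2 (log2 fold change 0.11), BMSCs-OE-FNDC5 replicate 1 (0.13) or BMSCs-OE-FNDC5 replicate 3 (0.15), nor with upper-quartile scaling (0.06). It had the other sign with the length trend removed (-0.06, which did not pass) and with library size only (-0.20, which passed).

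**Figure D2:**
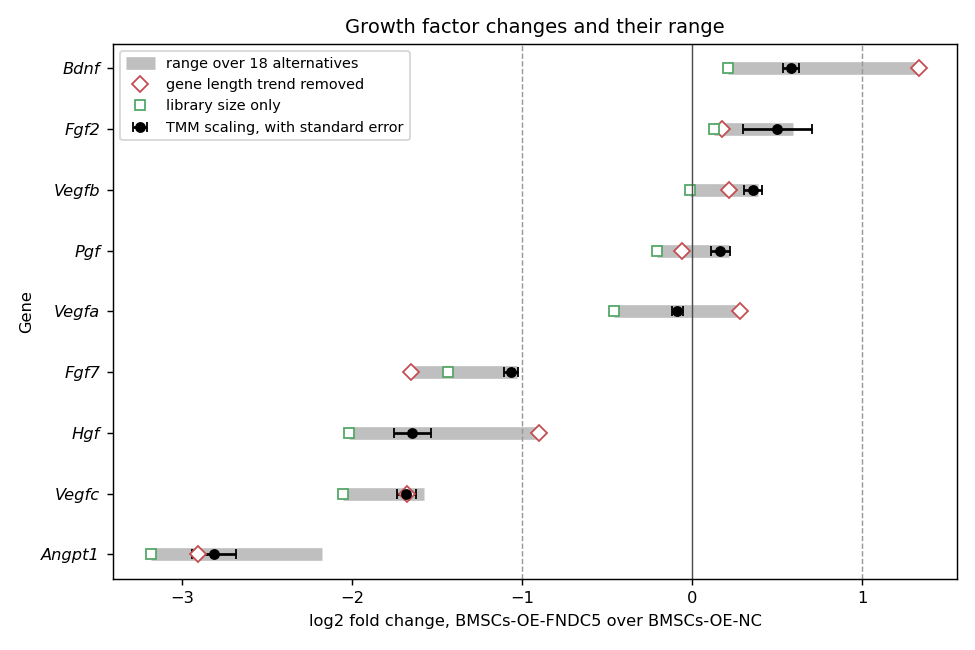
Log2 fold change of each growth factor with FNDC5 relative to the blank vector, with TMM scaling (black, bars give the SE from 3 against 3 libraries), with the gene length trend removed (diamonds) and with library size only (squares). Grey bars give the range over 18 alternatives: those of Angpt1, Vegfc, Hgf and Fgf7 lie wholly under 0, those of Bdnf and Fgf2 wholly above, and those of Vegfa, Pgf and Vegfb cross it.

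Hepatocyte growth factor, a mitogen and survival factor made by stromal cells, fell 3.13-fold. Hgf was at 26.4, 24.5 and 26.9 CPM in BMSCs-OE-NC and at 8.14, 7.30 and 9.41 CPM in BMSCs-OE-FNDC5. No library with FNDC5 came near the control libraries. The log2 fold change was -1.65 (SE 0.11, edgeR adjusted p = 1.0e-07). At 5978 bases Hgf is in the longest eighth of genes, and with the length trend removed the value was -0.90. Met, its receptor, had only 15 to 38 counts in control libraries and 7 to 13 with FNDC5 (log2 fold change -1.25, SE 0.44, edgeR adjusted p = 0.024), and its groups overlapped in CPM. It did not pass with the length trend removed (-0.65, edgeR adjusted p = 0.21) or without BMSCs-OE-NC replicate 2 (-1.09), BMSCs-OE-NC replicate 3 (-1.05), BMSCs-OE-FNDC5 replicate 2 (-1.17) or BMSCs-OE-FNDC5 replicate 3 (-1.08).

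The 2 fibroblast growth factors took different courses. Fgf7, the keratinocyte growth factor that stromal cells make for neighbouring epithelium, was the most abundant of the 9 by FPKM. It was at 179.6, 175 and 183 CPM in BMSCs-OE-NC and at 81.9, 90.0 and 85.2 CPM in BMSCs-OE-FNDC5. All libraries with FNDC5 were far under all control libraries. Fgf7 fell 2.09-fold (log2 fold change -1.07, SE 0.04, edgeR adjusted p = 8.6e-10). Its listed length of 693 bases puts it in the shortest eighth, whose median rose, so that removing the length trend gave a lower value, -1.66. Fgf2, which drives endothelial and stromal growth, was the least abundant in CPM in BMSCs-OE-NC, while Angpt1 was lower in BMSCs-OE-FNDC5 (2.79 CPM). Fgf2 counts were 43, 45 and 53 in BMSCs-OE-NC and 45, 46 and 58 in BMSCs-OE-FNDC5. Raw counts of the groups therefore overlapped, and the scaled values of 2.34 ± 0.296 and 3.32 ± 0.460 CPM (SD, n = 3 each) differed through the scaling. The log2 fold change of 0.50 (SE 0.20, edgeR adjusted p = 0.044) did not pass in 10 of 18 alternatives, among them DESeq2 (adjusted p = 0.13), the length trend removed (edgeR adjusted p = 0.46) and the fits without BMSCs-OE-NC replicates 1 or 2 or BMSCs-OE-FNDC5 replicates 2 or 3 (log2 fold changes 0.42, 0.46, 0.54 and 0.39). Fgf2 overlaps Nudt6, its antisense partner, which had 70 to 119 counts. Fgf7 overlaps Fam227b on the opposite strand (23 to 49 counts). No strand setting is stated, so reads of such pairs cannot be told apart with certainty.

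Of other FGF ligands, Fgf10, a stromal signal to epithelium, was abundant and fell from 208 ± 7.86 to 144 ± 6.10 CPM (SD, n = 3 each; log2 fold change -0.53, edgeR adjusted p = 3.2e-07), but was at -0.04 with the length trend removed (edgeR adjusted p = 0.48). Fgf1, which binds all FGF receptors, rose slightly (0.28, edgeR adjusted p = 0.021), and more with the length trend removed (0.82, edgeR adjusted p = 1.7e-05). It did not pass with upper-quartile scaling (0.18), with library size only (-0.09) or without BMSCs-OE-NC replicate 3 (0.22), BMSCs-OE-FNDC5 replicate 1 (0.26) or BMSCs-OE-FNDC5 replicate 2 (0.28).

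Bdnf, the neurotrophin that supports neuronal survival and synapses, was the one member that passed as higher in all 18 alternatives. It was at 54.4, 51.7 and 53.7 CPM in BMSCs-OE-NC and at 78.3, 77.5 and 83.5 CPM in BMSCs-OE-FNDC5. All libraries with FNDC5 exceeded all control libraries. The means were 53.3 ± 1.41 and 79.8 ± 3.28 CPM (SD, n = 3 each) (log2 fold change 0.58, SE 0.04, edgeR adjusted p = 3.8e-07). Raw counts were 1037 to 1107 and 1136 to 1261. At 6068 bases Bdnf is among the longest eighth of genes, whose median fell, and with the length trend removed its log2 fold change was 1.34. With library size only it was 0.21 and still passed. These are transcripts of BMSCs in culture after H/SD, and protein was not measured in these files.

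Other neurotrophic factors moved in both directions. Artn and Nrtn, ligands of the GDNF family, rose from 6.97 ± 0.348 to 19.2 ± 2.31 CPM and from 1.97 ± 0.247 to 6.84 ± 0.426 CPM (SD, n = 3 each), with log2 fold changes of 1.46 and 1.79. Gdnf itself fell from 35.1 ± 4.50 to 20.4 ± 3.57 CPM (-0.78), and Manf, a neurotrophic protein of the endoplasmic reticulum, rose from 372 ± 13.5 to 661 ± 28.8 CPM (0.83). These 4 kept their sign and passed under every scaling and with the length trend removed. Of 22 listed relatives of the members, 13 had enough counts for a test, and 5 rose while 3 fell (median log2 fold change 0.36). Over all genes 36.9% were higher and 38.8% lower (median -0.04). Beside Angpt4, the relatives that did not pass were Mst1 (-0.15), Ntf4 (0.72), Ptn (-0.91) and Cdnf (0.88). Scaled by library size only, 4 relatives rose and 4 fell, where 2659 of all 12104 genes rose and 6709 fell.

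Receptors for the 9 factors had mostly few or no counts. Of 15 listed, Flt1, Kdr, Flt4, Nrp1, Tie1, Fgfr4, Ntrk2 and Ngfr had 0 counts in all 6 libraries, and Tek, Fgfr3 and Sort1 had at most 16. A 0 in a single library allows an expected count of up to 3, and 0 in all 6 allows less per library. Marrow stromal cells are known to express Nrp1. Whether its 0, or that of another receptor, reflects the cells or the way the gene was annotated and counted was not tested. The other 4 were tested and fell, where 38.8% of all genes tested were lower. Nrp2, a coreceptor for VEGF-C, fell from 148 ± 7.78 to 81.7 ± 1.88 CPM (SD, n = 3 each; log2 fold change -0.86, edgeR adjusted p = 1.0e-08). Fgfr2, whose epithelial isoform is the receptor for FGF7, was at -0.99 and Fgfr1, the main FGF receptor of stroma, at -0.21, beside Met at -1.25. Their median length was 4855.5 bases, and with the length trend removed 1 rose (Fgfr1, 0.13), 1 fell (Fgfr2, -0.40) and Nrp2 was at -0.07 (edgeR adjusted p = 0.11).

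**Figure D3:**
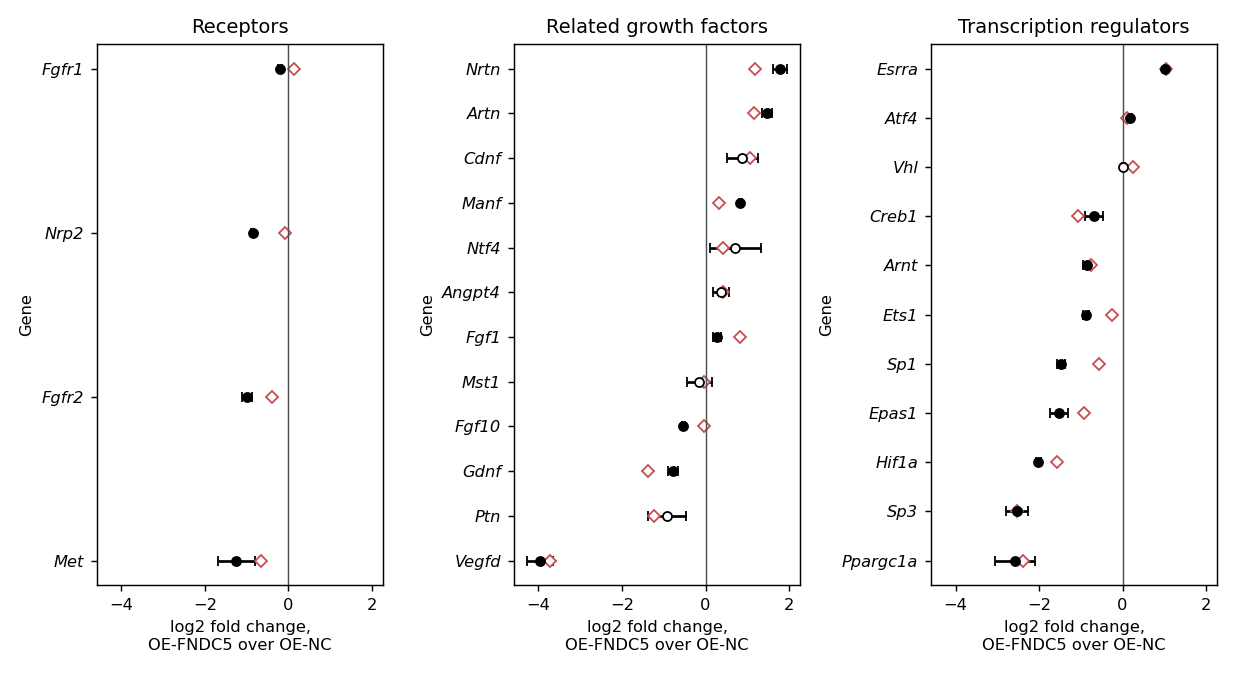
Log2 fold change with FNDC5 relative to the blank vector for tested receptors, related growth factors and transcription regulators, with bars for the SE (3 against 3 libraries). Filled circles have an edgeR adjusted p under 0.05 and open circles do not. Diamonds show the values with the gene length trend removed, where Nrp2 moves from -0.86 to -0.07 and Vegfd from -3.96 to -3.73.

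The balance between the 9 transcripts changed. FPKM, which divides counts by gene length, allows levels of different genes to be compared. In BMSCs-OE-NC the order was Fgf7 (254 ± 4.98 FPKM), Vegfa (100.5 ± 1.09), Pgf (55.03 ± 3.14), Vegfc (37.3 ± 2.09), Vegfb (25.2 ± 1.07), Angpt1 (10.2 ± 0.639), Bdnf (8.63 ± 0.222), Hgf (4.27 ± 0.199) and Fgf2 (1.82 ± 0.224; SD, n = 3 each), and no neighbours in this order overlapped in their libraries. In BMSCs-OE-FNDC5 it was Fgf7 (124 ± 5.97 FPKM), Vegfa (96.3 ± 3.58), Pgf (62.8 ± 3.88), Vegfb (32.8 ± 1.44), Bdnf (13.2 ± 0.551), Vegfc (11.8 ± 0.0413), Fgf2 (2.62 ± 0.366), Angpt1 (1.48 ± 0.161) and Hgf (1.39 ± 0.179; SD, n = 3 each). Here the last 2 overlapped. Bdnf went from rank 7 to rank 5 and Angpt1 from rank 6 to rank 8. The summed FPKM of the 9 was 485 to 508 in control libraries and 341 to 349 with FNDC5.

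As a share of that sum, Fgf7 went from 51.2 ± 0.171% to 35.7 ± 1.31% and Vegfa from 20.2 ± 0.247% to 27.8 ± 0.651% (SD, n = 3 each). Shares do not depend on how a library is scaled, although they do depend on the lengths listed and were not corrected for the length trend. Pgf made up 11.1 ± 0.453% and then 18.2 ± 1.32%, Vegfb 5.06 ± 0.114% and 9.49 ± 0.554%, and Bdnf 1.74 ± 0.0312% and 3.80 ± 0.149%. Vegfc went from 7.49 ± 0.297% to 3.41 ± 0.0517%, Angpt1 from 2.05 ± 0.167% to 0.426 ± 0.0435% and Hgf from 0.857 ± 0.0220% to 0.400 ± 0.0512%, while Fgf2 went from 0.365 ± 0.0395% to 0.755 ± 0.0994%.

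**Figure D4:**
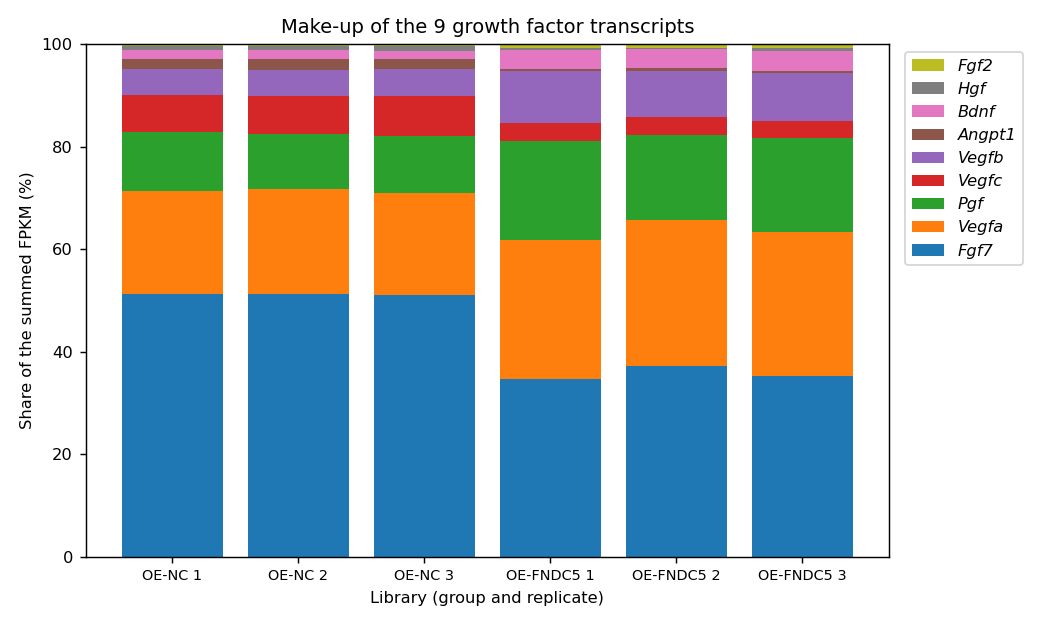
Share (%) of each growth factor transcript in the summed FPKM of the 9, by library (3 of BMSCs-OE-NC, then 3 of BMSCs-OE-FNDC5). The Fgf7 share is near 51% in every BMSCs-OE-NC library and 34.7% to 37.2% in BMSCs-OE-FNDC5, and that of Vegfa goes from about 20% to 27.1% to 28.4%.

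Ratios within a library need no scaling between libraries. For each unit of Vegfa there was 0.101 of Angpt1 in BMSCs-OE-NC and 0.0153 in BMSCs-OE-FNDC5, 6.64-fold less. The ratio of Vegfc to Vegfa went from 0.370 to 0.123, that of Vegfb to Vegfa from 0.250 to 0.341 and that of Pgf to Vegfa from 0.547 to 0.652. Ratios were not formed with the length trend removed. With that trend removed, log2 fold changes were 0.28 for Vegfa, 0.22 for Vegfb and -0.06 for Pgf. There neither Vegfb nor Pgf rose relative to Vegfa, while Vegfc (-1.68) and Angpt1 (-2.91) still fell relative to Vegfa. Hgf exceeded Fgf2 in BMSCs-OE-NC, at a ratio of 2.36, and was under it in BMSCs-OE-FNDC5, at 0.530, and the ratio of Fgf7 to Fgf2 went from 141 to 47.5. After removal of the length trend, log2 fold changes were -0.90 for Hgf, 0.18 for Fgf2 and -1.66 for Fgf7. Hgf then fell less relative to Fgf2, and whether it would still lie under Fgf2 was not tested. In these 6 ratios all libraries of one group lay on one side of the other (two-sided exact permutation p = 0.1, which 3 against 3 libraries cannot go below, and 0.12 adjusted over 7 ratios).

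Low oxygen was common to both groups, so genes it induces were read beside Vegfa. Of 22 listed hypoxia targets, all tested, 9 rose and 9 fell (median log2 fold change -0.02). Over all genes tested 36.9% were higher and 38.8% lower (median -0.04). With library size only 2 of the hypoxia targets rose and 14 fell, where 2659 of all 12104 genes rose and 6709 fell. Higd1a, a mitochondrial protein, was at 1.38, Ldha, lactate dehydrogenase, at 0.62, Pgk1, a glycolytic enzyme, at 0.39 and Kdm3a, a histone demethylase, at -1.75. Pgk1 did not pass with library size only (0.02). Of 11 regulators that act on these growth factor genes, 2 rose and 8 fell (median log2 fold change -0.87, against -0.04 over all genes). The counts were 1 and 10 with library size only (2659 and 6709 over all genes), and 3 and 8 with the length trend removed (4613 and 4069). Hif1a, the oxygen-regulated factor that induces Vegfa, fell from 133 ± 0.886 to 32.8 ± 3.78 CPM (SD, n = 3 each; log2 fold change -2.02, edgeR adjusted p = 2.8e-10). Sp1, which binds GC boxes, fell from 30.3 ± 1.29 to 10.9 ± 0.997 CPM (-1.48, edgeR adjusted p = 6.0e-08), its relative Sp3 was at -2.53 and Ets1, a factor of vessel genes, at -0.87. With the length trend removed these 4 were at -1.57, -0.57, -2.52 and -0.25. The 2 that rose were Esrra, a nuclear receptor that acts on metabolic genes and on Vegfa, and Atf4, a stress-response factor. Esrra went from 394 ± 12.4 to 801 ± 22.0 CPM (SD, n = 3 each; 1.02, edgeR adjusted p = 1.5e-10), the smallest p of the list, and was at 1.04 with the length trend removed. Atf4 was at 0.19, and at -0.18 with library size only.

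Since Sp1 and the hypoxia-inducible factors were measured, the promoters were read for their letters. The RefSeq table (GRCr8) gave 14 promoters of 300 bases for 8 of the 9 genes, 250 before to 50 after the start site. Angpt1 had none. A GC box (GGGCGG, either strand) stood in 5 of the 14 (35.7%) and in 33.1% of 33469 promoters in the table, and a hypoxia element core (ACGTG or GCGTG, either strand) in 8 of 14 (57.1%) against 41.6%. The Bdnf gene holds 6 of the 14, and 2 of those overlap each other. Outside Bdnf, only the Vegfb, Fgf2 and Pgf promoters held a hypoxia core. The share above 41.6% therefore came from the promoters of Bdnf. A palindromic CACGTG counts on both strands. The sequences shown are those of 3 VEGF genes (1 of the 2 listed for Vegfa), which hold GC boxes, and of Fgf7, which holds neither motif in this window. Capitals mark the motifs.
Vegfa, chr9:22452604-22452903, plus strand: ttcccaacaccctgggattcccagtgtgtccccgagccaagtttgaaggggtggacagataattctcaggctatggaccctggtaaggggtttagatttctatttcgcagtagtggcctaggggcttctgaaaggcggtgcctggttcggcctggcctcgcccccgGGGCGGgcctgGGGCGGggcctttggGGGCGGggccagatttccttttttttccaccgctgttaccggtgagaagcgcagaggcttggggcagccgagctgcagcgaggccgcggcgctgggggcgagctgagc
Vegfb, chr1:213607103-213607402, minus strand: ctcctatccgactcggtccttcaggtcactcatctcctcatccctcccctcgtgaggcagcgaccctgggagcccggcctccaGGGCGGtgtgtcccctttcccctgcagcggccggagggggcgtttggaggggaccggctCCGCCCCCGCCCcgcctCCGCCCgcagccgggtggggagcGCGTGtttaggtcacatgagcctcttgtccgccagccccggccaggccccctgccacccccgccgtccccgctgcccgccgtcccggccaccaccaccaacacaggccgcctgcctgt
Vegfc, chr16:44560838-44561137, minus strand: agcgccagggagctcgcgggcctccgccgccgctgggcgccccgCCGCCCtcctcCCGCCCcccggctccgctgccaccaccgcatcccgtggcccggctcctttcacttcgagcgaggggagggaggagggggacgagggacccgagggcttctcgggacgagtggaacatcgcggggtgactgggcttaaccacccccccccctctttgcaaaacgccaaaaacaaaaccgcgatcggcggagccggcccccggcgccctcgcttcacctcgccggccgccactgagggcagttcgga
Fgf7, chr3:133735377-133735676, plus strand: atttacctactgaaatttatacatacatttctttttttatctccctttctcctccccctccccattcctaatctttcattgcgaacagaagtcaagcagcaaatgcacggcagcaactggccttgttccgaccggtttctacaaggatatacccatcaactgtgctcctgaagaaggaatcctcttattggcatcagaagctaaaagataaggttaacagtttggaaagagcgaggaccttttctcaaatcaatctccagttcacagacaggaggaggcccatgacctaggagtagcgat

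This Vegfa promoter held 3 GC boxes, starting 84, 73 and 58 bases before the start site, and no hypoxia core in this window. That of Vegfb held 4 GC boxes and 1 hypoxia core of the G form, and that of Vegfc 2 GC boxes. The Pgf promoter also held 2 GC boxes and 1 hypoxia core. The window of Hgf held neither motif, and that of Fgf2 held 2 hypoxia cores and no GC box. GC boxes of Bdnf stood in 1 of its 6 promoters. A match of letters is no evidence that a factor binds there.

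In the tables' own positions, whose rat build is not named, Vegfa (ENSRNOG00000019598) is on chromosome 9 from 17340341 to 17355681, Vegfb (ENSRNOG00000021156) on 1 from 222239022 to 222242644, Vegfc (ENSRNOG00000011416) on 16 from 40440207 to 40555576 and Pgf (ENSRNOG00000005650) on 6 from 108994018 to 109004598. Angpt1 (ENSRNOG00000005854) is on chromosome 7 from 81342280 to 81592206, Hgf (ENSRNOG00000007027) on 4 from 15433295 to 15505362 and Fgf2 (ENSRNOG00000017392) on 2 from 124081072 to 124134681. Fgf7 (ENSRNOG00000009425) and Bdnf (ENSRNOG00000047466) are both on chromosome 3, from 118317761 to 118366872 and from 100768637 to 100819210. Counts are of whole genes, so the splice forms of Vegfa and the alternative promoters of Bdnf were not separated.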

How the data were processed

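RNA-seq was performed by the authors on an Illumina platform. The deposited counts are whole numbers per gene, and the deposited FPKM values, made by the authors, equal the count over gene length and a constant per library that is not its total. Tools in the submitters' processing notes, whose roles are not given, are the aligners HISAT2 2.1.0, Bowtie2 2.2.3 and TopHat2, the counter HTSeq 0.6.0, and also DESeq2 and CASAVA. They name mm10 and retinas, whereas the tables hold rat genes and the labels give bone marrow.

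Counts were filtered (filterByExpr, minimum count 10, minimum total 15), TMM-scaled and compared by the quasi-likelihood test of edgeR 4.0.16 in R 4.3.3, with the vector as the model's 1 term and Benjamini-Hochberg adjustment over 12104 genes. The procedure was tested on simulated counts in which a small part of the genes changed, evenly up and down, without a length trend. That test does not bear on the scaling between these libraries. Alternatives used DESeq2 1.42.0, limma 3.58.1 (voom, and log2 of FPKM plus 1 or 0.1), RLE, upper-quartile or library size scaling, other filters, a replicate block, an offset for the length trend (lowess, span 0.3) and leaving out each library.

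Members and gene lists (receptors, relatives, release and activation, other angiogenic factors, inhibitors, hypoxia targets, regulators, markers) were chosen with earlier results of these data known. Named were all members, up to 8 tested receptors and relatives by smallest p, in other lists up to 4 genes with the smallest p in the direction that most of the list's calls took (either direction for hypoxia targets, which tied), Hif1a, Sp1 and Vegfd, and the 2 genes nearest each member. Genes that moved against their list's main direction, Adm and the single markers were added after their values were seen. Promoters are from RefSeq (GRCr8). Figures used Python 3.11.15 and matplotlib 3.10.9. Reads, qPCR, blots and animal experiments were not analysed here, and 1 relative and its ratio, which the counts of relatives and of ratios include, are not reported here.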

Additional observations from a re-analysis of the deposited data

How the results depend on the processing

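Of 162 pairs of a member and an alternative, 137 kept the direction and the side of the threshold, 21 kept the direction but no longer passed and 4 reversed. Angpt1, Vegfc, Hgf, Fgf7 and Bdnf passed in the same direction in all 18 alternatives each, and 4 members passed both thresholds in every one, with Bdnf in place of Hgf when the length trend was removed. Reversed were Vegfa with the length trend removed (0.28), Vegfb with library size only (-0.013), and Pgf with library size only (-0.20) and with the length trend removed (-0.060). Members higher numbered 2 with upper-quartile scaling, 1 with library size only and 2 to 4 when each library was left out in turn (2 without BMSCs-OE-NC replicate 2 or BMSCs-OE-FNDC5 replicate 3). Receptors higher and lower numbered 1 and 1 with the length trend removed. By construction, a scaling shifts all genes alike and the length offset shifts each gene according to its length. The all-gene median shifted by -0.37 with library size only and by -0.10 with upper-quartile scaling. Over all genes, 4469 were higher and 4692 lower at the adjusted p alone, and 2659 and 6709 with library size only. Past both thresholds 1191 were higher and 2124 lower, 483 and 3338 with library size only, and 866 and 706 on log2(FPKM + 1), which understates the change of low genes.

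Replicate numbers did not pair the libraries. Deviations of same-numbered libraries correlated at 0.0213, -0.0138 and -0.0067 across genes, and 1 of 3 libraries of either group was closest to its own number. With the replicate block 3 members rose and 5 fell, Fgf2 being at 0.50 (edgeR adjusted p = 0.052), and 4 passed both thresholds.

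The 6 ratios reported kept their direction with each library left out, which could not be otherwise, since their groups do not overlap. Counts per kilobase give the same ratios by construction, since FPKM is the count over gene length and a constant per library. Ratios were not formed with the length trend removed, where the log2 fold changes of Vegfb and Pgf were under that of Vegfa. Smaller lists moved too: release and activation genes higher went from 4 to 2 and hypoxia targets from 9 higher and 9 lower to 2 and 14 with library size only. All genes went from 4469 higher and 4692 lower to 2659 and 6709.

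Fgf2, with 43 to 58 counts per library, is limited by depth.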

Other observations

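Of 17 other secreted angiogenic factors 14 were tested, and 3 rose and 8 fell, where 36.9% of all genes were higher and 38.8% lower (median log2 fold change -0.42, against -0.04 over all genes). With library size only, 2 rose and 11 fell, where 2659 of all 12104 genes rose and 6709 fell. Cxcl12, a stromal chemokine that draws progenitor cells, fell from 826 ± 12.7 to 251 ± 11.1 CPM (SD, n = 3 each; -1.72), the platelet-derived factor Pdgfc was at -1.17, and the matrix-bound angiogenic proteins Cyr61 and Ctgf at -0.49 and -0.34. The 3 that rose were the chemokine Ccl2, from 1164 ± 38.4 to 1623 ± 33.1 CPM (SD, n = 3 each; 0.48, edgeR adjusted p = 2.6e-08), the cytokine Mif (0.95) and Tgfb1 (0.34). Ccl2 was at -0.03 with the length trend removed and Tgfb1 at -0.03 with library size only, and neither passed there. With the length trend removed Mif was at 0.28 and Cxcl12 at -1.04. Adm, adrenomedullin, a vasodilator that also promotes lymphatic vessels, went from 520 to 610 counts to 48 to 102 counts (-2.56) and was named after its value was seen. Of 7 secreted inhibitors of vessel growth tested, 5 fell, with 1 rise (Cxcl10, a chemokine at 4 to 7 counts against 20 to 36, named after its value was seen). Their median log2 fold change was -0.30, and over all genes 38.8% were lower and 36.9% higher. With the length trend removed 4 inhibitors fell and 2 rose, where 4069 of all 12104 genes fell and 4613 rose. Thbs2 fell from 2886 ± 77.1 to 659 ± 9.52 CPM (-2.13) and Thbs1 from 1419 ± 62.2 to 513 ± 11.7 CPM (-1.47). With the length trend removed Thbs2 was at -1.40 and Thbs1 at -1.08. Col18a1, the source of endostatin, was at -1.23, and at -0.61 with the length trend removed. Sema3f was at -0.30 but at 0.46 with the length trend removed.

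Genes listed for release and activation of the 9 factors moved in both directions. The list mixes activating proteases with carriers and an inhibitor, so its counts give no direction of activation. Of 11 tested, 4 were up and 5 down, where 36.9% of all genes were higher and 38.8% lower. The counts were 4 and 4 with the length trend removed (4613 and 4069 over all genes), and 2 and 6 with library size only (2659 and 6709). Adamts1, a protease that also binds VEGF-A, fell from 1627 ± 13.0 to 637 ± 8.03 CPM (SD, n = 3 each; -1.35) and Plat, tissue plasminogen activator, from 263 ± 12.1 to 85.5 ± 6.28 CPM (-1.62). The convertase Pcsk5 was at -1.32. With the length trend removed Adamts1 was at -0.83, Plat at -1.50 and Pcsk5 at -0.67. Sdc4, a heparan sulfate carrier for FGF2, was at -0.14, and at -0.03 with the length trend removed. Of the genes that rose, Gpc1, another heparan sulfate carrier, had the smallest p and went from 849 ± 4.08 to 1919 ± 47.5 CPM (SD, n = 3 each; 1.18, edgeR adjusted p = 6.0e-12). Plau, the urokinase plasminogen activator, was at 0.94 and the convertase Furin at 0.39, the latter at 0.02 with library size only, where it did not pass. Spint2, an inhibitor of HGF activation, was at 0.25, and at -0.01 with the length trend removed, where Gpc1 was at 1.54, Plau at 0.84 and Furin at 0.89.

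The genes whose centred log2 CPM over the 6 libraries lay nearest to a member's, of 7442 with a mean of at least 10 CPM, were Kdm3a and Fndc3a for Vegfc (root-mean-square distance 0.0353 and 0.0412), Plpp3 and Zfp281 for Angpt1 (0.0821 and 0.0948), Tmem68 and Mtdh for Hgf (0.0456 and 0.0574), Sdcbp and Atp6v1a for Fgf7 (0.0124 and 0.0207) and Aimp2 and Necap2 for Bdnf (0.0193 and 0.0215). For the others they were Ipo5 and a gene with a clone name for Vegfa, Phc2 and Tead3 for Vegfb, Cenpv and Cpt1c for Fgf2 and Sfi1 and Nop2 for Pgf, at 0.0130 to 0.0810. With 2 groups of 3 libraries, this likeness mostly reflects a like fold change.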
